A study of Mus musculus with 2 samples.

Results

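The intercalated disc and focal adhesion genes describe how a heart muscle cell is joined to its neighbours and to the matrix around it. They were taken as 31 listed genes plus every gene of the deposited table whose symbol begins with Itga or Itgb and a digit. All 31 listed genes were in the table, the rest came by symbol, and 45 of the 12446 named genes are described, 15 of them connexin and junction genes and 30 adhesion genes. Membership rests on gene names and not on measured values, although the list was drawn up with earlier results of these data known.

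The RNA came from mouse sinoatrial node, the small region of specialised heart muscle that starts each heartbeat, after sorting of its labelled cells. The Isl1 mutant group is 1 library of ICR embryos with the genotype Hcn4-CreERT2; Isl1f/f; Rosa-tdTomato, in which both copies of Isl1 are floxed. The control group is 1 library of ICR embryos with the genotype Hcn4-CreERT2; Isl1+/+; Rosa-tdTomato. Both groups therefore carried the tamoxifen-inducible Cre recombinase driven from Hcn4 and the red fluorescent reporter that Cre switches on, and both received tamoxifen at E10.5, a day of embryonic development. Cells were collected 36 hours later, and the harvest stage is labelled E12.5. Embryos of 1 genotype were pooled, in a number that the labels do not state. Beads against CD31 took out endothelial cells before the reporter-positive cells were sorted, so the model covers cells in which Hcn4-driven Cre had been active. Since each genotype has 1 library, the spread between replicates is unknown, no test was made, and differences are given by size.

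The values are RPKM, reads per kilobase of exon and per 1e+06 reads of the library. Library totals were inferred from the steps of these values, as totals that give whole reads. They came to 119018888 reads in the mutant library and 110117186 reads in the control library. Intervals beside a fold are exact 95% intervals that cover counting error only. Isl1, the targeted gene, which encodes a LIM-homeodomain transcription factor, stood at 1.52 RPKM in the mutant library, against 7.65 RPKM in the control library, 5.02-fold lower (4.53 to 5.56). The labels do not say which exons are floxed, and the value covers the gene as a whole. In such sorted pools, fewer cells of a type and less RNA per cell cannot be told apart. Across all 12446 genes the median log2((mutant RPKM + 1)/(control RPKM + 1)) was -0.18, and it ran with level, from -0.56 in the lowest of 10 equal bins of genes to 0.019 in the highest. A difference is therefore set beside the median of genes of similar level where the distinction matters.

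Cells of the working heart muscle are coupled end to end at the intercalated disc. Gap junctions, built of connexins, pass current between cells, desmosomes anchor intermediate filaments, and adherens junctions anchor actin through cadherins and catenins. Pacemaker cells of the node are known for sparse, low-conductance coupling that shields them from the surrounding atrium, and the T-box repressor TBX3 is known to hold down Gja1 and Gja5 there. Integrins are the receptors that bind the extracellular matrix, each a pair of an alpha and a beta subunit. Inside the cell, talin and kindlin switch integrins on, vinculin and the complex of integrin-linked kinase, PINCH and parvin tie them to actin, and focal adhesion kinase with its scaffolds passes the signal on.

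The start regions of Gja1, Gja5 and Itga5 are shown because the connexin RNA results turn on Gja1 and Gja5. The RNA results on integrin make-up turn on Itga5, a fibronectin receptor gene. Coupling itself was not measured. Each window covers 250 bases before to 50 bases after the annotated start in the RefSeq build GRCm38.p6, at chr10:56377050-56377349 on the plus strand for Gja1, chr3:97032152-97032451 on the plus strand for Gja5 and chr15:103366742-103367041 on the minus strand for Itga5. Capitals mark the homeodomain core TAAT, read on either strand.
Gja1: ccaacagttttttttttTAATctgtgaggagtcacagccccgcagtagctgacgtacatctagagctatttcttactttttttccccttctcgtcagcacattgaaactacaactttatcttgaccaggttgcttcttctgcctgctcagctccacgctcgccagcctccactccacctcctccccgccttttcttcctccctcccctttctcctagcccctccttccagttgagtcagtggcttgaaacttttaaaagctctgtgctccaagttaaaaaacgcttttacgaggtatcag
Gja5: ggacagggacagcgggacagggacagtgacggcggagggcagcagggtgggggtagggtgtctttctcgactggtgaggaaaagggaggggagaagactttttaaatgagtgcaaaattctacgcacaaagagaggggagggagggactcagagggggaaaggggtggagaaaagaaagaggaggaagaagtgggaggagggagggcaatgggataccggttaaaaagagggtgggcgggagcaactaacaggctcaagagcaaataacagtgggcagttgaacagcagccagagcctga
Itga5: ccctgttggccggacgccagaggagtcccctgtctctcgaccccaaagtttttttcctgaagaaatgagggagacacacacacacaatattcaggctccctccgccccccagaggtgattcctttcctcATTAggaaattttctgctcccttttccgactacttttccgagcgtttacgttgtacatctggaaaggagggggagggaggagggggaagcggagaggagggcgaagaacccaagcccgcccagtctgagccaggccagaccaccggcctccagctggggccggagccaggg
The Gja1 window holds 1 TAAT match, which begins at -233 from the start base, and the Itga5 window holds 1, which begins at -121, while the Gja5 window holds 0. The T-box core AGGTGT was found on neither strand of the 3 windows. Among 41 such windows of 31 members, 14 (34.1%) hold TAAT and 9 (22.0%) hold AGGTGT, beside 58.0% and 13.7% of all 32851 windows with both strands searched. The motifs can share a base where they adjoin, and 1 window can hold both. These matches are letters in a window and say nothing of binding.

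The first comparison was that of the connexins, the channel proteins of gap junctions. Of the 3 connexin genes among the 45, 2 were higher in the mutant library and 1 was lower, beside 32.9% of all genes higher and 67.1% lower by any size. The table holds 2 more connexin genes, both lower, which makes 2 higher and 3 lower of 5 measured. Of these 2, Gja4 was under 1 RPKM in the mutant library. It is included through the control library alone, so its lower mutant value was partly built in. Gja1, which encodes connexin 43, the main connexin of working muscle (chr10:56097106-56122319, mm9), stood at 21.6 RPKM in the mutant library, against 11.4 RPKM in the control library. The mutant value was 1.89-fold higher (interval 1.84 to 1.95), which placed Gja1 at rank 90 from the highest ratio among 6343 genes at 5 RPKM or more in a library. Gja5, which encodes connexin 40, the high-conductance connexin of the atrium (chr3:96708616-96881339), stood at 71.5 RPKM in the mutant library, against 48.1 RPKM in the control library. It was 1.49-fold higher (1.46 to 1.51) and ranked 261. Gjc1, which encodes connexin 45, the low-conductance connexin of the node, was at 1.24 RPKM in the mutant library, against 1.97 RPKM in the control library.

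The Gjc1 value was 1.59-fold lower (1.47 to 1.73), but a log2 difference of -0.41 on the scale with 1 RPKM added stands beside a median of -0.26 for genes of its level. Of the further connexin genes, Gja3, which encodes connexin 46, was at 2.32 RPKM in the mutant library, against 3.38 RPKM in the control library, 1.46-fold lower. Gja4, which encodes connexin 37, known from endothelium, was at 0.698 RPKM in the mutant library, against 1.72 RPKM in the control library, 2.46-fold lower. Together the 3 connexins of the 45 summed to 94.4 RPKM in the mutant library, against 61.5 RPKM in the control library, 153% of control, and all 5 summed to 97.4 RPKM, against 66.6 RPKM, 146% of control. Within the sum of 3 Gja1 made up 22.9% in the mutant library, against 18.6% in the control library, and Gjc1 1.31%, against 3.20%. The ratio of Gja1 to Gjc1 was 17.5 in the mutant library (interval 16.4 to 18.7), against 5.79 in the control library (5.47 to 6.14). Gja5 was the most abundant connexin gene in both libraries, at 3.31 times Gja1 in the mutant library and 4.22 times Gja1 in the control library. Heart muscle markers were higher in 7 of 8 cases beside these genes, with a summed level of 10803 RPKM in the mutant library, against 8356 RPKM in the control library, and their part in the connexin values was not tested.

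**Figure D1:**
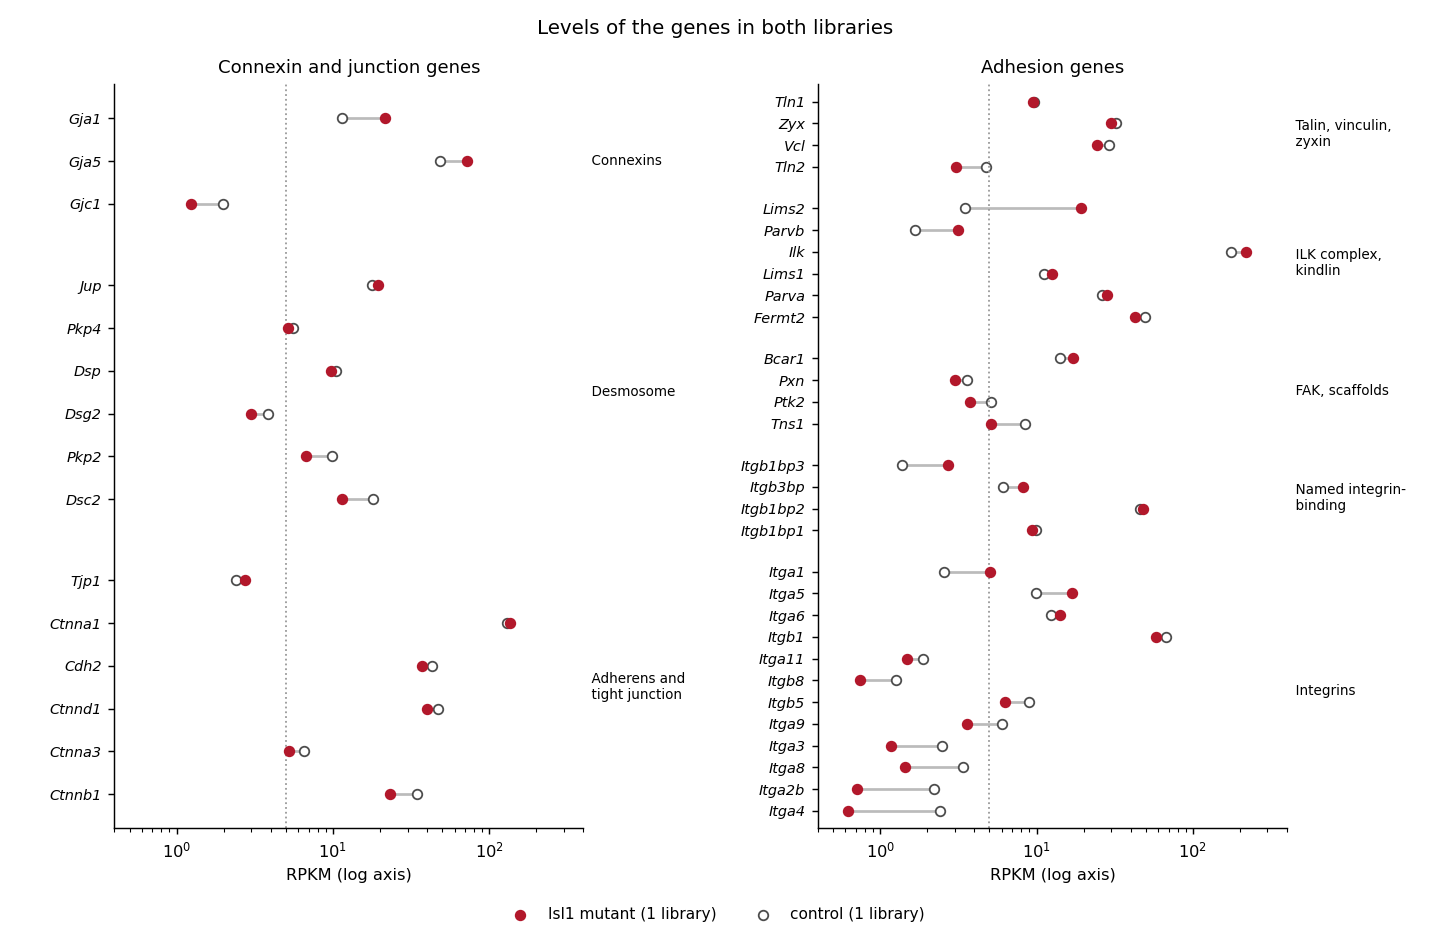
Level of each of the 45 genes in RPKM on a log axis, connexin and junction genes at left and adhesion genes at right, with the Isl1 mutant library as filled red points and the control library as open points (1 library each, no error bars). The dotted line marks 5 RPKM, and Gja1, Gja5 and Lims2 lie visibly to the right in the mutant library while Itga4, Itga2b and Itga8 lie to the left.

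Desmosome genes were below the control level, apart from plakoglobin, beside 67.1% of all genes lower. The margin was small for Dsp and Pkp4. Dsc2, a desmosomal cadherin gene and the desmocollin of heart muscle (chr18:20189134-20218055), stood at 11.5 RPKM in the mutant library, against 18.1 RPKM in the control library, 1.58-fold lower (interval 1.54 to 1.62). Its partner cadherin gene Dsg2 stood at 2.99 RPKM in the mutant library, against 3.83 RPKM in the control library. Pkp2, the plakophilin gene of the cardiac desmosome, was at 6.70 RPKM in the mutant library, against 9.93 RPKM in the control library, 1.48-fold lower (1.40 to 1.57). Its relative Pkp4, an armadillo protein gene, was nearly level, at 5.13 RPKM in the mutant library and 5.54 RPKM in the control library (1.08-fold lower, 1.03 to 1.13). Dsp, which encodes desmoplakin, the link to intermediate filaments, was at 9.66 RPKM in the mutant library and 10.4 RPKM in the control library (1.08-fold lower, 1.05 to 1.11).

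Jup, which encodes plakoglobin, a catenin shared by desmosomes and adherens junctions, went the other way by a small margin, at 19.5 RPKM in the mutant library, against 17.8 RPKM in the control library (1.10-fold higher, 1.07 to 1.13). In all, 5 of the 6 desmosome genes were lower and 1 was higher, beside 67.1% and 32.9% of all genes. With the level trend removed 3 lay above and 3 below the median of their level. The desmosomal cadherin pair Dsg2 and Dsc2 summed to 14.5 RPKM in the mutant library, against 21.9 RPKM in the control library.

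Adherens junction genes differed little, and the exception was beta-catenin. Ctnnb1, which encodes beta-catenin, the cadherin partner that also carries Wnt signals (chr9:120838334-120869625), stood at 23.0 RPKM in the mutant library, against 34.3 RPKM in the control library, 1.49-fold lower (interval 1.46 to 1.52). Cdh2, which encodes N-cadherin, the classical cadherin of heart muscle, was at 36.9 RPKM in the mutant library, against 43.0 RPKM in the control library. Ctnnd1, which encodes p120 catenin, a stabiliser of cadherins at the membrane, was at 39.9 RPKM in the mutant library, against 46.9 RPKM in the control library. Both were about as much lower as each other, by 1.17-fold (1.14 to 1.20) and 1.18-fold (1.16 to 1.19).

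Ctnna1, which encodes the actin-binding alpha-E-catenin, was the most abundant junction gene, at 135 RPKM in the mutant library and 129.6 RPKM in the control library, and differed by 1.04-fold (1.03 to 1.05). Ctnna3, the alpha-T-catenin gene of the hybrid junctions of heart muscle, was at 5.21 RPKM in the mutant library and 6.56 RPKM in the control library, 1.26-fold lower (1.21 to 1.32). Tjp1, which encodes the scaffold ZO-1 that binds connexin 43, was at 2.72 RPKM in the mutant library and 2.40 RPKM in the control library. Because Ctnnb1 was lower while Jup was slightly higher, the ratio of Jup to Ctnnb1 was 0.847 in the mutant library (0.827 to 0.868), against 0.518 in the control library (0.506 to 0.531).

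A gene was counted as higher or lower by size when it reached 5 RPKM in at least 1 library and differed at least 1.5-fold on the log2(RPKM + 1) scale. By that rule 1 of the 12 junction genes at this level, Gja1, was higher, and 1, Dsc2, was lower, while 10 lay within 1.5-fold. The background is 3.77% of 6343 genes higher and 11.8% lower. On this scale Gja5, at a log2 difference of 0.562, lay just under the limit, as did Ctnnb1, at -0.554, on the lower side. Pkp2, at -0.505, lay further inside the limit. At least 2-fold, 0 junction genes were counted in either direction, beside 1.01% of all genes higher and 2.68% lower. The median log2 difference over all 15 junction genes was -0.22, beside -0.18 over all genes, and with the level trend removed it was -0.059.

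Further junction genes outside the 45 were compared from a list of 47, of which 30 were measured. Of these, 9 were higher and 21 lower, beside 32.9% and 67.1% of all genes, and their median log2 difference was -0.25. The split was 13 and 17 with the level trend removed. By the size rule, 3 of the 18 genes that reached 5 RPKM were lower and 0 were higher, beside 11.8% and 3.77% of all genes. Cdh6, a type II cadherin gene of early epithelia and neural tissue, was at 3.39 RPKM in the mutant library, against 9.26 RPKM in the control library, 2.73-fold lower. It reached 5 RPKM in the control library alone. Cdh11, the cadherin gene of mesenchymal cells, was at 8.16 RPKM in the mutant library, against 18.2 RPKM in the control library, 2.23-fold lower. Jam3, a junctional adhesion molecule gene, was at 11.4 RPKM in the mutant library, against 18.4 RPKM in the control library, 1.62-fold lower.

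**Figure D2:**
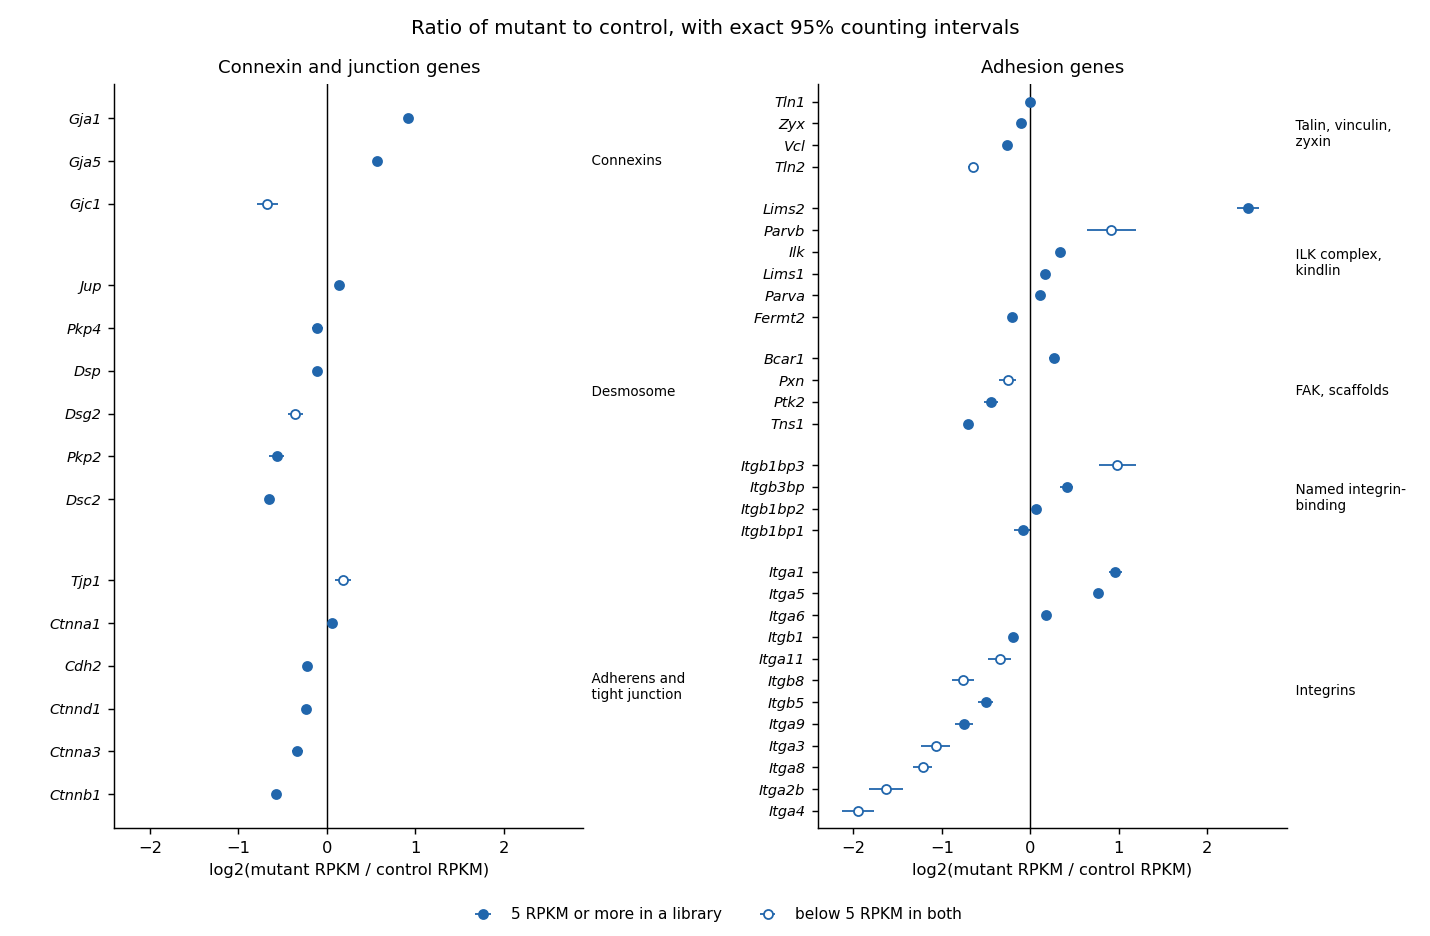
log2 of mutant RPKM over control RPKM for each gene, with exact 95% counting intervals as bars; filled points reach 5 RPKM in a library and open points do not. Positive values are higher in the Isl1 mutant library, where Lims2 lies farthest right at 2.46, and Itga4 lies farthest left at -1.95. Itga4 is under 1 RPKM in the mutant library and is included through the control library alone.

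Adhesion was followed from the matrix inwards, beginning with genes of integrin ligands. Most matrix genes of the list stood below the control level, 18 of the 21 measured, while 3 stood above it, beside 67.1% and 32.9% of all genes. The split was the same with the level trend removed. At 5 RPKM or more, 1 of 19 was at least 1.5-fold higher and 9 were at least 1.5-fold lower, beside the 3.77% and 11.8% of all genes, and the median log2 difference was -0.64. Nid1, which encodes a basement membrane linker, was at 2.43 RPKM in the mutant library, against 8.67 RPKM in the control library, 3.57-fold lower. Tnc, which encodes tenascin-C, a ligand of integrins with the alpha-9 subunit, was at 2.53 RPKM in the mutant library, against 8.24 RPKM in the control library, 3.26-fold lower. The fibronectin gene Fn1 was at 13.0 RPKM in the mutant library, against 29.6 RPKM in the control library, 2.28-fold lower. Among the ligand genes counted as lower by size, Nid1, Tnc and Postn reached 5 RPKM in the control library alone.

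The fibrillar collagen genes Col3a1 and Col1a2 were 2.51-fold and 2.45-fold lower. Vcam1, which encodes the cell-surface partner of the integrin pair alpha-4 and beta-1, was the only one of these genes that was at least 1.5-fold higher, at 62.3 RPKM in the mutant library, against 40.1 RPKM in the control library. Fibroblast and mesenchyme markers, which share Col1a1, Col1a2, Col3a1 and Postn with the ligand list, were lower in 10 of 11 cases and summed to 501 RPKM in the mutant library, against 786 RPKM in the control library. Their part in the matrix values was not tested.

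Among the integrin genes of the 45, 3 of 9 alpha subunits were higher and 6 were lower, a split near that of all genes (32.9% higher and 67.1% lower), and all 3 beta subunits were lower. The table holds 3 more alpha subunit genes, whose symbols carry a letter in place of a digit, which makes 5 higher and 7 lower of 12. In these splits, Itga4, Itga2b and Itgb8 are included through the control library alone, and Itgax through the mutant library alone. With the level trend removed, 4 of the 9 alpha subunits lay above and 5 below, with Itga11 changing side, and the beta subunit gene Itgb8 changed side too. Itga1, the collagen-binding alpha-1 subunit gene (chr13:115746513-115892172), stood at 5.01 RPKM in the mutant library, against 2.58 RPKM in the control library, 1.95-fold higher (interval 1.85 to 2.05). Itga5, the fibronectin receptor subunit gene (chr15:103174720-103197194), stood at 16.8 RPKM in the mutant library, against 9.87 RPKM in the control library, 1.70-fold higher (1.64 to 1.76). These genes ranked 129 and 150 from the highest ratio. The laminin receptor subunit gene Itga6 was at 14.1 RPKM in the mutant library, against 12.5 RPKM in the control library, 1.13-fold higher (1.10 to 1.16).

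Lower alpha subunit genes lay mostly below 5 RPKM. Itga4, whose product pairs with beta-1 on leukocytes and the epicardium (chr2:79095583-79173280), was at 0.627 RPKM in the mutant library, against 2.42 RPKM in the control library, 3.86-fold lower (interval 3.41 to 4.38). Itga2b, the platelet and megakaryocyte subunit gene, was at 0.711 RPKM in the mutant library, against 2.20 RPKM in the control library, 3.09-fold lower (2.70 to 3.54). Itga8, a subunit gene of mesenchymal and smooth muscle cells, was at 1.45 RPKM in the mutant library, against 3.36 RPKM in the control library, 2.32-fold lower (2.16 to 2.50). On the log2(RPKM + 1) scale these genes stood at -1.07, -0.90 and -0.83, below the medians of -0.24 to -0.25 for genes of their level. Itga4 and Itga2b, under 1 RPKM in the mutant library, are included through the control library alone. A lower mutant value was thus partly built in for both. Macrophage and blood markers ran lower beside Itga4, Itga2b and Itga8 in all 7 measured cases of 11 listed, beside 67.1% of all genes. Of these markers, Ptprc, Fcer1g, C1qa and C1qc were under 1 RPKM in the mutant library. They too are included through the control library alone, so a lower mutant value was partly built in. The 7 markers summed to 7.57 RPKM in the mutant library and 41.8 RPKM in the control library. The leukocyte subunit genes Itgax and Itgad, outside that list, went the other way and were higher in the mutant library. Itgax, under 1 RPKM in the control library, is included through the mutant library alone, so its higher mutant value was partly built in. Of the 9 platelet markers Itga2b itself was the 1 measured. The part of such cells in these values was not tested.

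Itga3, a laminin receptor subunit gene of epithelia, was at 1.18 RPKM in the mutant library, against 2.47 RPKM in the control library. Itga9, the tenascin-C receptor subunit gene, was at 3.57 RPKM in the mutant library, against 6.01 RPKM in the control library, 1.68-fold lower (1.57 to 1.80). Itga11, a collagen receptor subunit gene of fibroblasts, was at 1.48 RPKM in the mutant library and 1.89 RPKM in the control library. Of the beta subunits, Itgb1, the common partner of most of these alpha chains, was at 58.2 RPKM in the mutant library, against 66.9 RPKM in the control library, 1.15-fold lower (1.13 to 1.17). Itgb5, which pairs with alpha-V, was at 6.32 RPKM in the mutant library, against 8.95 RPKM in the control library, 1.42-fold lower (1.335 to 1.502). Itgb8, whose product also pairs with alpha-V, was at 0.745 RPKM in the mutant library, against 1.26 RPKM in the control library.

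The 3 alpha subunit genes outside the 45 were low in both libraries. Itgav, the alpha-V subunit gene, was at 1.36 RPKM in the mutant library, against 2.08 RPKM in the control library, 1.54-fold lower. The leukocyte subunit genes Itgax and Itgad were at 2.04 and 2.69 RPKM in the mutant library, against 0.552 and 1.26 RPKM in the control library, 3.70-fold and 2.13-fold higher. Itgax is included through the mutant library alone.

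The summed level of the 9 alpha subunit genes of the 45 hardly differed, at 44.95 RPKM in the mutant library and 43.25 RPKM in the control library, while its make-up did. Itga5 made up 37.4% of the sum in the mutant library, against 22.8% in the control library, and Itga1 11.2%, against 5.96%. Itga4, Itga8 and Itga9 made up 1.39%, 3.22% and 7.95% in the mutant library, against 5.60%, 7.77% and 13.9% in the control library. Over all 12 alpha subunit genes the sum was 51.0 RPKM in the mutant library, against 47.2 RPKM in the control library, and Itga5 made up 32.9%, against 20.9%. The highest alpha subunit gene was Itga5 in the mutant library and Itga6 in the control library, and the ratio of Itga5 to Itga6 was 1.19 in the mutant library (1.16 to 1.22), against 0.792 in the control library (0.765 to 0.819).

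**Figure D3:**
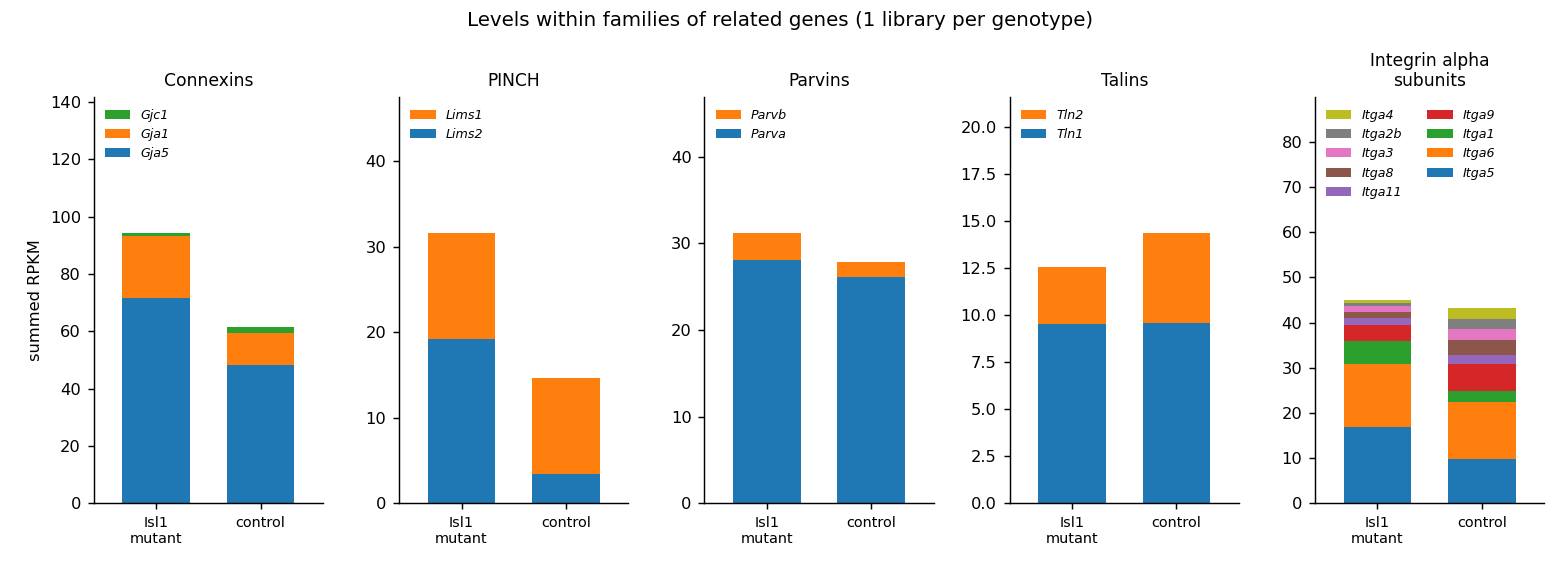
Summed RPKM of related genes in the Isl1 mutant library (left bar) and the control library (right bar), with each colour 1 gene. The connexin bar is taller in the mutant library, Lims2 is the larger part of the PINCH bar in the mutant library and the smaller part in the control library, and the bars of the 9 alpha subunit genes of the 45 are of nearly equal height but different make-up.

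Of the complex of integrin-linked kinase, PINCH and parvin, the 5 genes among the 45 were all higher in the mutant library, also with the level trend removed, beside 32.9% of all genes. The third parvin gene of the table, Parvg, the gamma-parvin gene of blood cells, was lower, at 0.109 RPKM in the mutant library, against 1.07 RPKM in the control library, which makes 5 higher and 1 lower of 6. Parvg is included through the control library alone, so its lower mutant value was partly built in. Lims2, which encodes PINCH2 (chr18:32091161-32118273), stood at 19.2 RPKM in the mutant library, against 3.48 RPKM in the control library. It was 5.51-fold higher (5.06 to 5.99), counted over at least 3826 reads in the mutant library and 643 in the control library, and held rank 4 of 6343 genes. Lims1, which encodes the related PINCH1, was at 12.5 RPKM in the mutant library, against 11.1 RPKM in the control library, 1.12-fold higher (1.09 to 1.16). The ratio of Lims2 to Lims1 was 1.53 in the mutant library (1.48 to 1.59), against 0.313 in the control library (0.288 to 0.339), so Lims2 was the more abundant of both in the mutant library and the less abundant in the control library.

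Ilk, the integrin-linked kinase gene (chr7:112885106-112891439), was the most abundant of the 45 genes, at 219.6 RPKM in the mutant library, against 174 RPKM in the control library, 1.26-fold higher (1.24 to 1.28). Parvb, which encodes beta-parvin, the parvin enriched in heart muscle, was at 3.15 RPKM in the mutant library, against 1.67 RPKM in the control library, 1.88-fold higher (1.56 to 2.28). Parva, which encodes the widely expressed alpha-parvin, was at 28.1 RPKM in the mutant library and 26.1 RPKM in the control library, 1.07-fold higher (1.05 to 1.10). Parva was the main parvin gene, at 8.90 times Parvb in the mutant library and 15.6 times Parvb in the control library. Fermt2, which encodes kindlin-2, the integrin activator that binds this complex, lay on the other side, at 42.6 RPKM in the mutant library, against 49.1 RPKM in the control library, 1.15-fold lower (1.13 to 1.18).

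Talin, vinculin and zyxin genes were level or lower. Tln1, which encodes talin-1, was at 9.54 RPKM in the mutant library and 9.61 RPKM in the control library, with an interval that includes no difference (0.967-fold to 1.02-fold), and its sign turned when the ratios were centred or the level trend was removed. Tln2, the talin gene of mature striated muscle, was at 3.04 RPKM in the mutant library, against 4.78 RPKM in the control library, 1.57-fold lower (1.51 to 1.63). The ratio of Tln1 to Tln2 was 3.14 in the mutant library, against 2.01 in the control library. Vcl, which encodes vinculin, was at 24.2 RPKM in the mutant library, against 29.0 RPKM in the control library, 1.20-fold lower (1.17 to 1.23). Zyx, which encodes the actin-associated zyxin, was at 30.0 RPKM in the mutant library and 32.2 RPKM in the control library, 1.07-fold lower (1.05 to 1.10).

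Of the signalling scaffolds, Tns1, which encodes tensin-1, an integrin-tail binding protein (chr1:73956805-74171021), was at 5.15 RPKM in the mutant library, against 8.40 RPKM in the control library, 1.63-fold lower (1.58 to 1.68). Ptk2, which encodes focal adhesion kinase, was at 3.78 RPKM in the mutant library, against 5.13 RPKM in the control library, 1.36-fold lower (1.29 to 1.43). Pxn, which encodes paxillin, was at 3.01 RPKM in the mutant library, against 3.59 RPKM in the control library. Bcar1, which encodes the scaffold p130Cas, was higher, at 17.1 RPKM in the mutant library, against 14.2 RPKM in the control library (1.20-fold, 1.16 to 1.25).

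The remaining 4 genes carry an integrin-binding name. Itgb1bp2, which encodes melusin, a muscle chaperone that binds the beta-1 tail, was nearly level at 47.7 RPKM in the mutant library and 45.7 RPKM in the control library (1.04-fold higher, 1.02 to 1.07). Itgb1bp1, which encodes the beta-1 tail inhibitor ICAP1, was at 9.39 RPKM in the mutant library and 9.97 RPKM in the control library, and its interval includes no difference (0.881-fold to 1.01-fold). Itgb1bp3, now named Nmrk2 and known as a nicotinamide riboside kinase of muscle, was at 2.72 RPKM in the mutant library, against 1.38 RPKM in the control library, 1.98-fold higher (1.71 to 2.29). Itgb3bp, which encodes the centromere protein CENP-R, was at 8.17 RPKM in the mutant library, against 6.14 RPKM in the control library, 1.33-fold higher (1.26 to 1.40).

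By the size rule, 3 of the 20 adhesion genes at 5 RPKM or more were at least 1.5-fold higher, namely Lims2, Itga1 and Itga5, and 2 were lower, namely Tns1 and Itga9, beside 3.77% and 11.8% of all genes. At least 2-fold, 1 was higher, Lims2, and 0 were lower, beside 1.01% and 2.68% of all genes. Lims2 and Itga1 reached 5 RPKM in the mutant library alone, and Itga9 and Ptk2 in the control library alone. Itga1 at 5.01 RPKM lay just inside the level limit, and Tln2 at 4.78 RPKM just outside it. Of the 10 adhesion genes below 5 RPKM, Parvb, Itgb1bp3, Itga3, Itga8, Itga2b and Itga4 differed by as much on the same scale. The median log2 difference over all 30 adhesion genes was -0.15, beside -0.18 over all genes, and with the level trend removed it was 0.037.

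Other adhesion genes came from a list of 59, of which 51 were measured. Of these, 20 were higher and 31 lower, beside 32.9% and 67.1% of all genes, with a median log2 difference of -0.13. With the level trend removed 30 were higher and 20 lower. At 5 RPKM or more, 2 of 35 were at least 1.5-fold higher, beside 3.77% of all genes. Actn4, which encodes a non-muscle alpha-actinin, was at 118 RPKM in the mutant library, against 67.4 RPKM in the control library, 1.75-fold higher, and Vasp, an actin polymerisation gene of adhesions, was at 5.22 RPKM in the mutant library, against 3.09 RPKM in the control library. Lower by this rule were 5 of 35, beside 11.8% of all genes. Csrp1, which encodes a LIM protein of smooth muscle, was at 20.8 RPKM in the mutant library, against 61.0 RPKM in the control library, 2.93-fold lower. Flna, which encodes filamin A, an actin cross-linker that binds integrin tails, was at 14.0 RPKM in the mutant library, against 31.1 RPKM in the control library, 2.22-fold lower. Nedd9, a relative of Bcar1, the vinexin gene Sorbs3 and the Rac activator gene Dock1 were 2.26-fold, 1.95-fold and 1.76-fold lower. Nedd9 and Sorbs3 reached 5 RPKM in the control library alone, and Vasp in the mutant library alone.

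**Figure D4:**
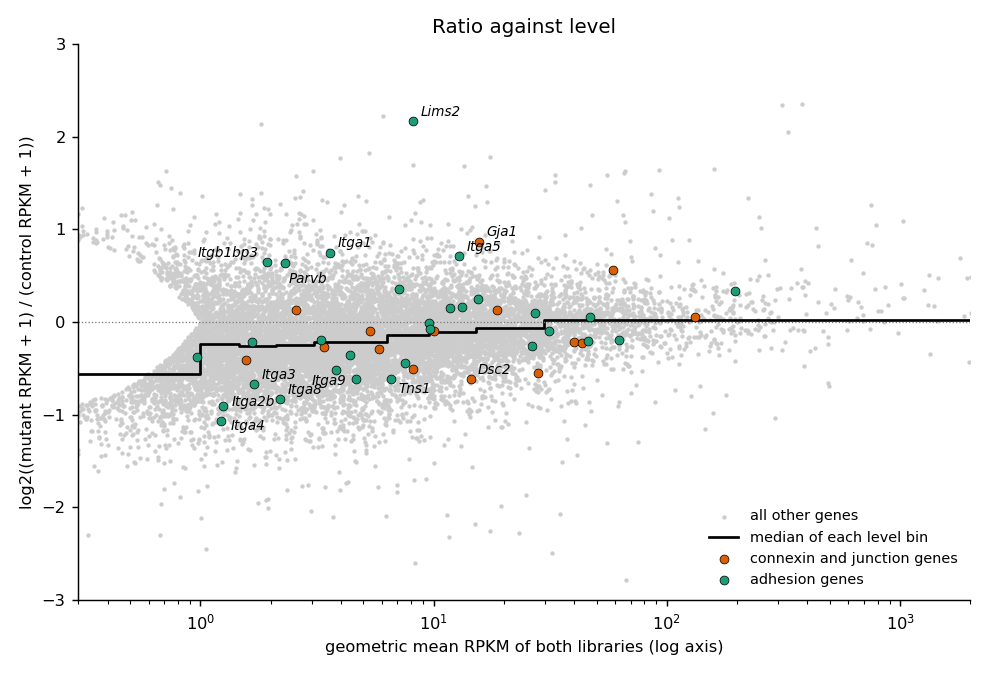
log2((mutant RPKM + 1)/(control RPKM + 1)) against the geometric mean RPKM of both libraries (log axis) for all genes (grey), connexin and junction genes (orange) and adhesion genes (green), with the median of each of 10 level bins as the black line. Members at least 1.5-fold different are named; Lims2 at 2.17 lies far above the line at its level, and the line itself climbs from -0.56 to 0.019. Genes beyond the axes are not drawn.

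Markers of other cell types were read in the same libraries, and their part in the results was not tested. Across all genes 32.9% were higher and 67.1% lower by any size. Node markers, Isl1 included, were lower in 8 of 8 cases and summed to 127 RPKM in the mutant library, against 234 RPKM in the control library, with Smoc2 the highest at 95.9 RPKM, against 168 RPKM. Tnnt2 was the highest heart muscle marker, at 3109 RPKM in the mutant library and 2535 RPKM in the control library. Erythroid genes were lower in 11 of 11 cases, or 10 with the level trend removed, and summed to 70.6 RPKM in the mutant library, against 403 RPKM in the control library. Endothelial markers were lower in 8 of 8 cases, or 7 with the level trend removed, and summed to 18.6 RPKM in the mutant library, against 33.6 RPKM in the control library. Epicardial markers were split, 5 higher and 5 lower, and summed to 154 RPKM in the mutant library, against 122 RPKM in the control library. Smooth muscle genes were higher in 5 of 7 cases and summed to 1567 RPKM in the mutant library, against 983 RPKM in the control library, with Acta2 the highest at 1008 RPKM, against 566 RPKM. Lower were Mylk, at 0.670 RPKM in the mutant library, against 5.71 RPKM in the control library, and Myocd, at 15.3 RPKM, against 17.4 RPKM. Of the markers in this paragraph, Hcn4, Slc4a1, Nfatc1, Emcn, Tie1 and Mylk were under 1 RPKM in the mutant library. They are included through the control library alone, so a lower mutant value was partly built in for them. None of the markers measured was listed at 0.

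The reads do not record strand, and 16 of the 45 genes overlap another gene of the table, so reads from shared stretches cannot be separated. Itgb3bp shares a stretch with Pgm2 on the opposite strand, which was far more abundant, at 266 RPKM in the mutant library, against 192 RPKM in the control library. The whole span of Itgb1bp3 lies within 2310050B05Rik on the opposite strand, at 7.90 RPKM in the mutant library, against 5.59 RPKM in the control library. Both partners were higher in the mutant library, as were Itgb3bp and Itgb1bp3, and their part in those values was not tested. Ilk overlaps Taf10, at 94.8 RPKM in the mutant library and 76.3 RPKM in the control library, on the opposite strand. Itga1 overlaps Pelo on the same strand, at 2.27 RPKM in the mutant library and 1.41 RPKM in the control library. Lims2 overlaps Gpr17 on the opposite strand, at 1.02 RPKM in the mutant library and 0.237 RPKM in the control library, and Itga4 overlaps Cerkl, at 0.711 RPKM in the mutant library and 1.53 RPKM in the control library.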

How the data were processed

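Per the labels' protocols, 10 ng of total RNA per library went through oligo(dT) selection and the SMARTer kit, and both ends were read for 90 bp. Trim Galore, FastQC, TopHat2, Bowtie2 and the build mm9 come from the submitters' processing notes. No source used here names the tool behind the gene table. The authors deposited 1 RPKM value per gene and library over constitutive exons, per the file headers; the unit is not named there and was read from the value steps, which gave whole reads within 0.01 for 276 of 284 small RNA genes in the mutant library and 284 in the control library. The lowest value of the higher library is 1.00 RPKM, so genes under 1 RPKM in both are not analysed here. Genes under 1 RPKM in 1 library alone, among them Itga4, Itga2b, Itgb8, Gja4, Parvg and Itgax, entered through their higher value. In every count of higher and lower genes, the direction of such genes was partly built in. The authors' deposited log2 fold change equals the log2 ratio of both values within 1.89e-07, and their signed fold score was not used.

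Reads were recovered as the smallest exon length giving whole reads in both libraries within 0.001, for 99.4% of 12557 genes, so true numbers can be multiples. The 45 genes rest on 296 to 73608 reads in the mutant library and 165 to 65331 in the control library. Clopper-Pearson intervals on these reads cover counting error only. Counts of genes used log2(RPKM + 1) differences, and for repeated symbols the row with the highest mean was kept. Level trend removal subtracts the median of 10 level bins. The rule names every member, and of the further lists the genes at least 1.5-fold different at 5 RPKM or more, at most 5 each way. Members and lists were chosen with earlier results of these data known. Recovery of reads and counting by size were tested on simulated data. Software was Python 3.11.15, pandas 2.3.3, NumPy 2.4.6, SciPy 1.17.1 and matplotlib 3.10.9.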

Additional observations from a re-analysis of the deposited data

How the results depend on the processing

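No paired analysis was possible because each genotype has 1 library, and for the same reason no library could be left out. The median log2 difference of the junction genes, -0.22, was -0.14 with a pseudocount of 5, -0.15 when centred on the median of the 5279 genes that reach 5 RPKM in each library, -0.059 with the level trend removed, -0.10 at a floor of 10 RPKM, -0.16 at a floor of 2 RPKM and -0.10 as a mean. That of the adhesion genes, -0.15, was -0.088, -0.081, 0.037, 0.13, -0.089 and -0.044 in the same order, so its sign turned with the level trend removed and at a floor of 10 RPKM. Dsc2 left the count of lower junction genes, giving 0, with a pseudocount of 5, when centred or with the level trend removed, and Gja5 joined Gja1 among the higher ones when centred, giving 2. Tns1 and Itga9 left the count of lower adhesion genes under the same settings, giving 0. That count was also 0 at a floor of 10 RPKM, where neither gene reaches the floor, and 6 at a floor of 2 RPKM. The count of higher adhesion genes was 1 with a pseudocount of 5, where Lims2 alone stayed, and 5 at a floor of 2 RPKM. A pseudocount shrinks ratios of low genes by construction, and the cause of the other shifts was not tested. None of the 7 genes past 1.5-fold changed sign under another pseudocount, centring or level removal, and 7 other members changed sign with the level trend removed: Dsp, Pkp4, Pxn, Tln1, Itga11, Itgb8 and Itgb1bp1. Counting intervals were widest for genes with few reads, such as Parvb (1.56 to 2.28), depth was not varied, and the spread between embryos or pools was not measured.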
